A study of Mus musculus with 6 samples.

Results

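The genes described here are 10 mucins and mucus proteins of the gut lining, namely the transmembrane mucins Muc1, Muc4, Muc13 and Muc20, the gel-forming mucin Muc2, and Tff3, Fcgbp, Clca1, Zg16 and Agr2, which goblet cells make. They were taken as a list of names, each read from the probe set that names that gene alone and, where there was more than 1, from the brightest on average. Of the 10, 9 had such a probe set, 1 each, among 19533 genes measured. Fcgbp is named only on 3 probe sets that also name other genes, and no value is given for it.

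Epithelial cells of the large intestine had been sorted as live, EpCAM-positive cells from germ-free C57BL/6 mice, animals that carry no microbiota. The control group, HDAC3FF, was 3 mice with floxed Hdac3 alleles. The other group, HDAC3ΔIEC, was 3 mice with Hdac3 deleted in intestinal epithelial cells. No source used here gives the Cre driver or the age and sex of the mice. HDAC3 is a histone deacetylase that works within corepressor complexes. Total RNA of each mouse was hybridised to 1 Affymetrix array, and the comparison asks what the loss of Hdac3 changes in these cells when no bacteria are present.

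Mucins are long proteins whose stretches rich in serine and threonine carry dense chains of sugars. Secreted Muc2 polymerises into the gel that separates bacteria from the colon surface, and the other goblet cell products fold, process, bind or accompany it. Transmembrane mucins stay anchored in the apical membrane of the epithelial cell and form its glycocalyx. Expression of Muc2 is commonly used to recognise goblet cells.

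All values are deposited log2 signals, so a difference of 1 is a change of 2-fold. Hdac3 itself read 7.12 ± 0.21 on the HDAC3FF arrays and 6.27 ± 0.29 on the HDAC3ΔIEC arrays (SD, n = 3 each), a difference of -0.86 ± 0.17 (SE) short of the threshold of 0.05 (limma adjusted p = 0.0937). Median signals lay between 5.3 and 5.35 and the highest between 13.40 and 13.55. With 3 arrays a group, precision is limited by their number. HDAC3FF replicate 3 had the lowest mean correlation with its own group (0.987, against 0.991 for each of the others) and read the highest control value for 7 of the 9 members, against 39.2% of all genes. Results are therefore also given without it where that matters. Over all genes 137 passed with all arrays and 430 without this one, while leaving out any other array gave at most 46. As the array was singled out in part by the members' own values, a pass gained without it is no independent support.

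Of the 9 measured members, Muc4 rose in HDAC3ΔIEC, none fell and 8 did not pass (limma, adjusted p under 0.05). Over all genes 0.701% passed, 0.369% higher and 0.333% lower. At an unadjusted p under 0.05 stood 2 members, Muc4 and Muc13, against 11.2% of all genes, the share beside which each such count below is to be read. The members' median difference was 0.13, against 0.01 over all genes, with 5 members above 0 and 4 below; over all genes 53.5% were above 0. Muc4 was also the 1 member whose groups did not overlap, where 16.2% of all genes had groups that did not overlap. In bulk RNA such as this, fewer cells of a type and less RNA per cell cannot be told apart.

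**Figure D1:**
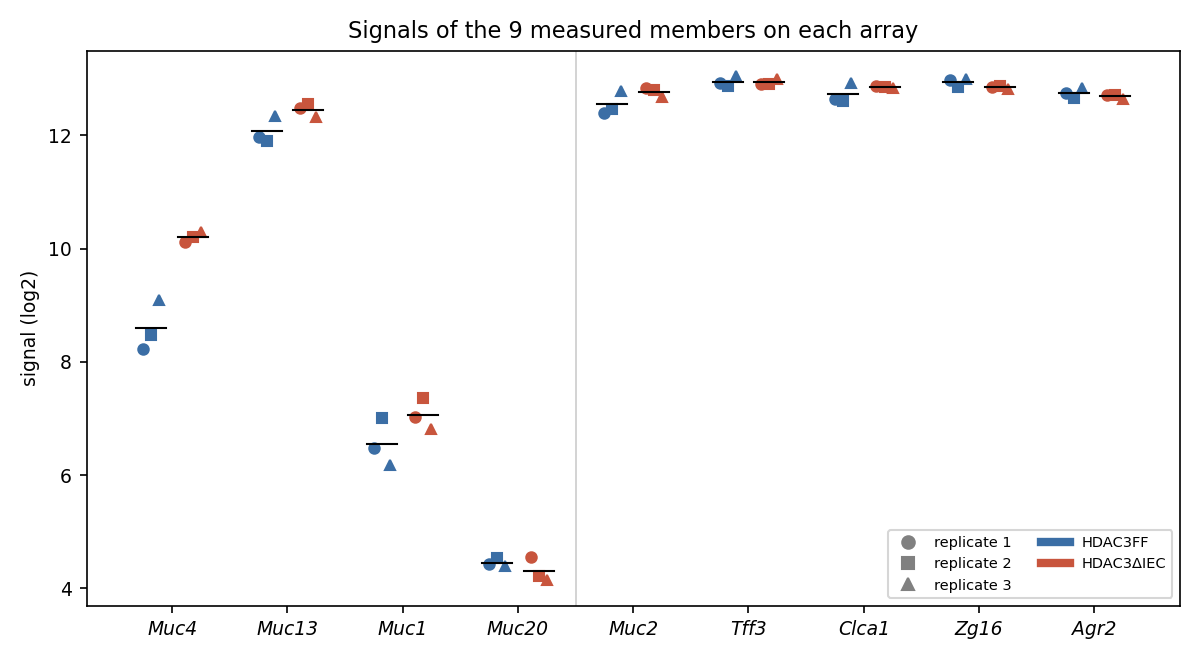
Log2 signal (y axis) of the 9 measured members on each of the 6 arrays, HDAC3FF in blue and HDAC3ΔIEC in red, with replicates 1 to 3 as circle, square and triangle and the group mean as a line; transmembrane mucins are left of the grey line. The Muc4 points of the genotypes lie apart, whereas Muc2, Tff3, Clca1, Zg16 and Agr2 sit between 12.40 and 13.05 in both.

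Muc4 is a large transmembrane mucin of the apical membrane whose membrane-bound part can associate with the receptor ErbB2. Its signals were 8.23, 8.47 and 9.10 on HDAC3FF arrays and 10.12, 10.21 and 10.29 on HDAC3ΔIEC arrays. Every HDAC3ΔIEC array read above every control array, and HDAC3FF replicate 3 was the control nearest to them. The means were 8.60 ± 0.45 and 10.21 ± 0.09 (SD, n = 3 each), a rise of 1.61 ± 0.21 (SE), or 3.05-fold with a 95% interval from 2.17 to 4.29 (limma adjusted p = 0.0313). It was the 26th largest of the 72 rises over all genes.

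The call, though not the direction, rested on the arrays at hand. Without HDAC3FF replicate 3 the difference was 1.86 (limma adjusted p = 0.00123). Without any 1 of the other 5 arrays Muc4 no longer passed: the limma adjusted p was 0.108 and 0.0974 without HDAC3FF replicates 1 and 2, and 0.101, 0.145 and 0.0921 without HDAC3ΔIEC replicates 1, 2 and 3, with differences between 1.42 and 1.65.

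The gene of Muc4 lies on chromosome 16, where its span overlaps that of Muc20, another member, in the RefSeq annotation of GRCm38.p6. The 250 bases before their annotated starts are shown because Muc4 passed the test and its neighbour Muc20 did not, beside the same window of Muc2, the goblet cell mucin; all are from RefSeq, 5′ to 3′ on the strand of the gene. The Muc4 window is chr16:32735636-32735885 (+ strand), that of Muc20 chr16:32797436-32797685 (- strand) and that of Muc2 chr7:141690090-141690339 (+ strand). Capitals mark GATAA, the core recognised by GATA factors, on either strand.
Muc4: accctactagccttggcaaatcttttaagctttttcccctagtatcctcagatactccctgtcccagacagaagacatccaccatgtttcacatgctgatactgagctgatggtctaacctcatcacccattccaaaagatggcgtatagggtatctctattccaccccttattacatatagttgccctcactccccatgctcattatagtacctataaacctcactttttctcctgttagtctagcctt
Muc20: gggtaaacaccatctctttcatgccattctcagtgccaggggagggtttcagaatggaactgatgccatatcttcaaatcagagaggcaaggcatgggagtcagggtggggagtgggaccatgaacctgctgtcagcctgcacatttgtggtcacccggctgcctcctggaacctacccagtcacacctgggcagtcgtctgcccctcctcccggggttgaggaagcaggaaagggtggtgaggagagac
Muc2: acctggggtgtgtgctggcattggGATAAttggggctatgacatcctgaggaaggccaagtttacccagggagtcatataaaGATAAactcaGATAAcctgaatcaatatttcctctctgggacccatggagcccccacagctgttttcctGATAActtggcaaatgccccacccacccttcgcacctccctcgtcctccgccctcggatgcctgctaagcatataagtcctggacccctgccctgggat

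The Muc2 window holds GATAA 4 times, all on the gene's strand, beginning 226, 168, 158 and 99 bases before the start, while those of Muc4 and Muc20 hold none in either orientation. Among 32851 windows of the same length, 22.6% hold GATAA or its reverse complement TTATC at least once and 0.119% at least 4 times. TTTAT, a core of CDX factors, or its reverse complement ATAAA, which can overlap GATAA where an A follows it, occurs once in the Muc4 window, 2 times in that of Muc2 and not in that of Muc20, against 37.3% of windows with at least 1. The Muc4 window contains 43.6% G and C, that of Muc20 57.2% and that of Muc2 53.2%, where the median window has 52.4%. Windows were found for 7 of the 10 members, all but Tff3, Clca1 and Zg16. The matches describe letters and were not tested against expression.

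Of the 5 measured protein-coding genes on either side of Muc4, 0 were called by limma and 1 had an unadjusted p under 0.05, and their differences lay between -0.41 and 0.24. The closest on one side is Tnk2, a non-receptor tyrosine kinase, at 0.24 ± 0.12 (SE, limma adjusted p = 0.554), and on the other Muc20 at -0.15 ± 0.12 (limma adjusted p = 0.771). That 1 was Lrch3, 4 genes away, which had the lowest value, -0.41 ± 0.11 (limma adjusted p = 0.178). These neighbours were looked up after the value of Muc4 was known.

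**Figure D2:**
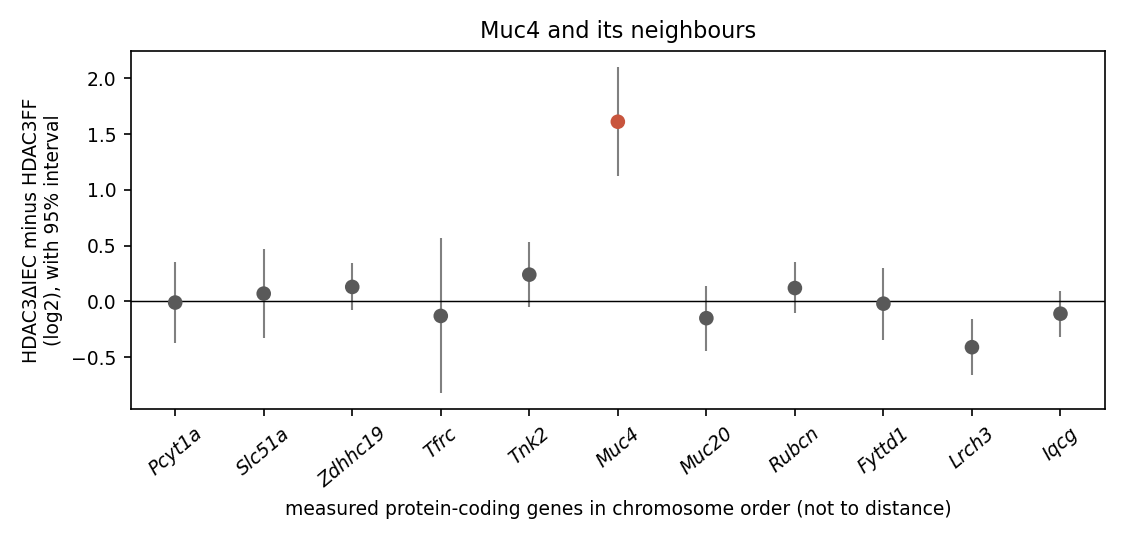
Log2 difference HDAC3ΔIEC minus HDAC3FF (y axis, points, with limma's 95% interval as lines) of Muc4 and the 5 measured protein-coding genes on either side, in chromosome order (x axis, not to distance). Muc4, in red, is at 1.61, and the 10 neighbours, in grey, lie between -0.41 and 0.24.

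The other transmembrane mucins did not pass. Muc13, a short transmembrane mucin abundant on colon epithelium, read 11.97, 11.90 and 12.34 in HDAC3FF and 12.48, 12.55 and 12.32 in HDAC3ΔIEC. Its groups overlapped through HDAC3FF replicate 3, which lay just above HDAC3ΔIEC replicate 3. The difference was 0.38 ± 0.14 (SE), with a 95% interval from 0.06 to 0.70 (limma adjusted p = 0.334). It was 0.51 without HDAC3FF replicate 3, which did not pass either (limma adjusted p = 0.0647). Leaving out other single arrays gave differences down to 0.29 and a limma adjusted p up to 0.702.

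Muc1, a transmembrane mucin whose cytoplasmic tail takes part in signalling, read 6.48, 7.01 and 6.18 in HDAC3FF and 7.03, 7.37 and 6.81 in HDAC3ΔIEC. Only HDAC3FF replicate 2 reached into the range of the other group. The difference of 0.52 ± 0.23 (SE) had a 95% interval from -0.02 to 1.05 (limma adjusted p = 0.465), and single arrays moved it from 0.33, without HDAC3FF replicate 3, to 0.74, without HDAC3FF replicate 2.

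Muc20, a small transmembrane mucin best known from the kidney, read 4.43, 4.54 and 4.39 in HDAC3FF and 4.56, 4.22 and 4.14 in HDAC3ΔIEC. Its mean was higher than those of 32.1% of the genes and its signals lay below the median of every array. Its difference was -0.15 ± 0.12 (SE), with a 95% interval from -0.44 to 0.14, and the groups overlapped. The 95% intervals of Muc13, Muc1 and Muc20 end at 0.70, 1.05 and 0.14, below the 1.12 at which that of Muc4 begins; whether these members differ from Muc4 in their response was not tested.

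**Figure D3:**
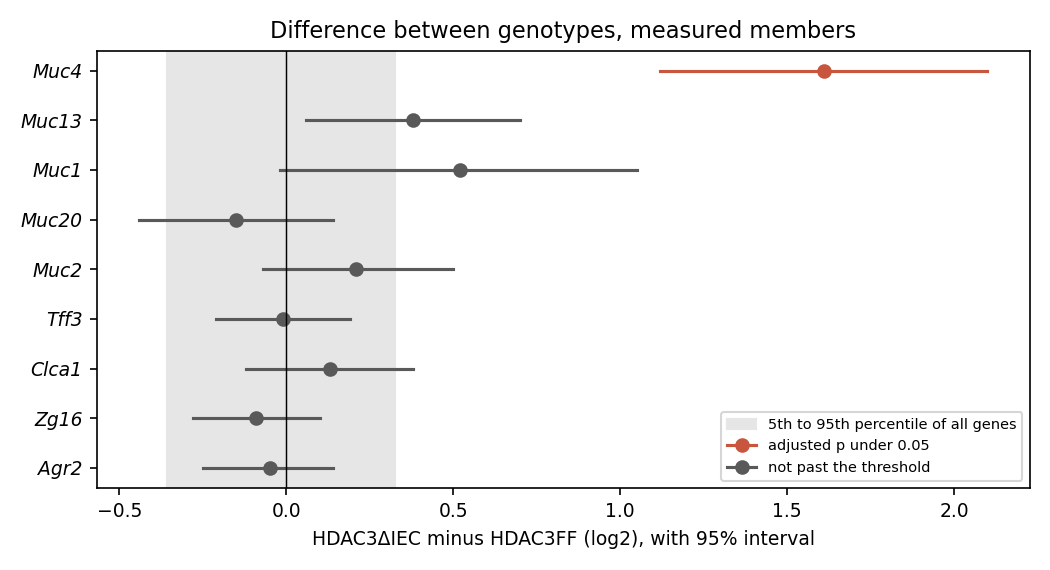
Log2 difference HDAC3ΔIEC minus HDAC3FF (x axis) of each measured member as a point with limma's 95% interval; the grey band spans the 5th to 95th percentile of all genes, from -0.36 to 0.33. Muc4, in red, is the member that passed, and the intervals of Muc2, Tff3, Clca1, Zg16 and Agr2 all include 0.

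Muc2, which forms the mucus gel of the colon, read 12.40, 12.46 and 12.79 on HDAC3FF arrays and 12.83, 12.80 and 12.67 on HDAC3ΔIEC arrays. The groups overlapped, with HDAC3FF replicate 3 again inside the range of the HDAC3ΔIEC arrays. The difference of 0.21 ± 0.12 (SE) did not pass (limma adjusted p = 0.609), and its 95% interval ran from 0.951-fold to 1.41-fold. Without HDAC3FF replicate 3 it was 0.33 (limma adjusted p = 0.157). Leaving out other single arrays gave differences down to 0.14 and a limma adjusted p up to 0.844.

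The proteins that accompany Muc2 had differences close to 0. Tff3, the trefoil peptide of intestinal goblet cells that promotes repair of the epithelium, read 12.92, 12.88 and 13.05 in HDAC3FF and 12.91, 12.91 and 13 in HDAC3ΔIEC. Its groups overlapped almost wholly, and its fold change of 0.993 had a 95% interval from 0.864 to 1.14 (limma adjusted p = 0.987). The sign of this difference changed with the centring of arrays and with the arrays used, between -0.05 and 0.04.

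Clca1, a secreted metalloprotease that processes Muc2 in the mucus, read 12.65, 12.60 and 12.93 in HDAC3FF and 12.87, 12.86 and 12.84 in HDAC3ΔIEC. The HDAC3ΔIEC values lay within the range of the controls, and the difference of 0.13 ± 0.11 (SE) had a 95% interval from 0.923-fold to 1.30-fold (limma adjusted p = 0.751). Zg16, a lectin of the mucus that binds Gram-positive bacteria, read 12.98, 12.85 and 12.99 in HDAC3FF and 12.85, 12.87 and 12.82 in HDAC3ΔIEC. Its difference was -0.09 ± 0.08 (SE), with a 95% interval from 0.821-fold to 1.07-fold (limma adjusted p = 0.780).

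Agr2, a protein disulphide isomerase of the endoplasmic reticulum needed to make Muc2, read 12.75, 12.66 and 12.83 in HDAC3FF and 12.72, 12.71 and 12.65 in HDAC3ΔIEC. Its difference of -0.05 ± 0.08 (SE) had a 95% interval from 0.843-fold to 1.11-fold (limma adjusted p = 0.907). For Tff3, Clca1, Zg16 and Agr2 the intervals include no change and end within 1.30-fold on the higher side. They do not show that these genes were unaffected by the loss of Hdac3.

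These intervals have to be read with the place of the genes in the signal range. A gene was counted as near the top when its signal lay within 1 of the highest gene signal on every array. This held for Tff3, Clca1, Zg16 and Agr2, the farthest of which from the top was Clca1, at 0.95 on 1 array. Muc2 stood just outside, up to 1.09 from the top, and Muc13 up to 1.65. Muc1, Muc4 and Muc20 lay at least 3.20 below it. A probe close to its ceiling can show less than the true difference, and the deposited values carry no mark of saturation. The genes near the top number 25 and include Tff3, Clca1, Zg16 and Agr2 themselves. Of the 25, 0 were called by limma and 2 had an unadjusted p under 0.05. The size of their differences had a median of 0.0728 and a maximum of 0.26, against a median of 0.0956 over all genes. Their SE had a median of 0.0841, against 0.111 over all genes. All genes include many dim ones, so these are not comparisons with other bright genes. Whether compression took part in the members' small differences was not tested.

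**Figure D4:**
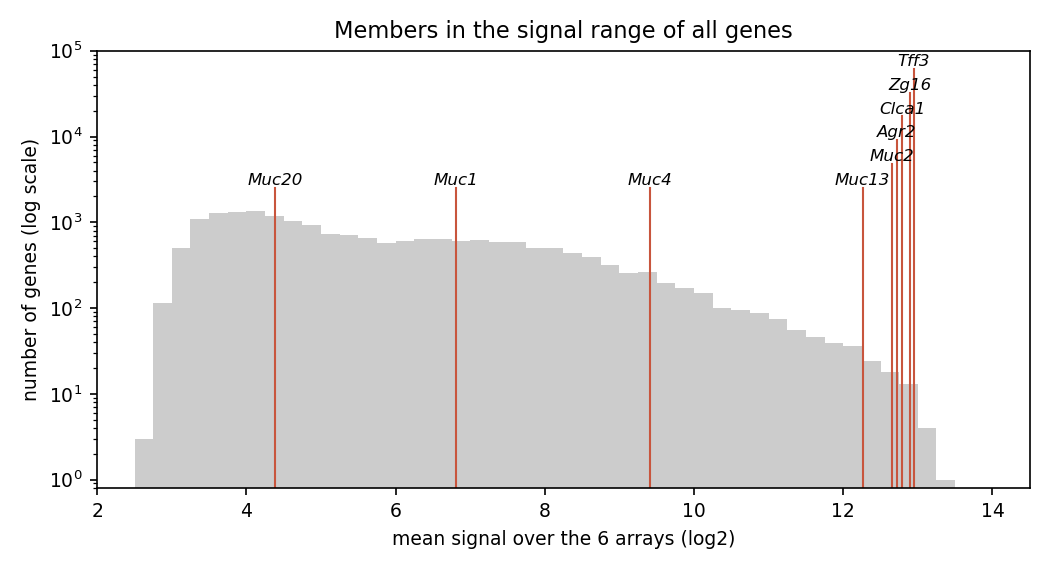
Number of genes (y axis, log scale) by mean signal over the 6 arrays (x axis, log2, in bins), with each measured member marked by a red line. Muc20, Muc1 and Muc4 lie within the bulk or the upper slope of the range, while Muc13, Muc2, Agr2, Clca1, Zg16 and Tff3 crowd at its upper end.

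Among 10 other mucins measured, 0 were called by limma, with 1 at an unadjusted p under 0.05, and their median difference was 0.05. That 1 was Muc16, the large transmembrane mucin also known as CA125, which read 7.43, 7.02 and 5.15 in HDAC3FF and 4.27, 4.56 and 4.63 in HDAC3ΔIEC. The controls lay above the other group but far apart, and the difference of -2.05 ± 0.53 (SE) did not pass (limma adjusted p = 0.175). Without HDAC3FF replicate 3 it was -2.74 and passed (limma adjusted p = 0.00123). It did not pass without any other single array (limma adjusted p up to 0.435). Muc3, the other abundant transmembrane mucin of the intestine, had a difference of 0.02 ± 0.10 (limma adjusted p = 0.979). The gel-forming mucins of stomach and airway, Muc5ac, Muc5b and Muc6, had signals of at most 4.76 on every array.

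In the families of Tff3, Clca1 and Agr2, 10 further genes were measured, of which 0 were called by limma and 5 had an unadjusted p under 0.05. All 5 were relatives of Clca1. Clca3b, Clca3a1 and Clca3a2 had differences of -0.77, -0.73 and -1.10, whereas Clca4b had 1.25 and Clca2 0.29. Without HDAC3FF replicate 3 the differences of Clca3b, Clca3a1 and Clca3a2 passed (3 calls). None of these 3 passed without any other single array, with a limma adjusted p of Clca3a1 up to 0.303. The trefoil genes Tff1 and Tff2 had 0.00 and -0.15, and Agr3 0.11. Clca genes are similar in sequence, and cross-hybridisation among their probes was not tested.

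Of 22 other genes listed as goblet cell products, not all of them made by goblet cells alone, 2 fell, none rose and 20 did not pass, where 0.333% of all genes fell. An unadjusted p under 0.05 was found for 11 of the 22. The chemokine Ccl9 fell from 8.01 ± 0.08 to 7 ± 0.22 (SD, n = 3 each), a difference of -1.01 ± 0.12 (SE, limma adjusted p = 0.0276). The solute carrier Slc12a8 fell from 7.44 ± 0.19 to 6.53 ± 0.14, by 0.92 ± 0.12 (limma adjusted p = 0.0342). In 11 of the 22 every HDAC3ΔIEC array read below every control, and in none every one above, against 7.70% and 8.45% of all genes. Among these 11 were Retnlb (-1.15), which encodes a goblet cell protein that acts on bacteria, the adhesion molecule Hepacam2 (-0.93), the anion channel Best2 (-1.14) and the stress sensor Ern2 (-0.65), which did not pass. The list's median was -0.43, and stayed between -0.39 and -0.54 without any 1 array except HDAC3FF replicate 3, where it was -0.31. Spink4, a goblet cell product near the top of the signal range like Tff3, Clca1, Zg16 and Agr2, had -0.13. The number called was 0 without HDAC3FF replicate 1 or 2 or HDAC3ΔIEC replicate 2, 1 without HDAC3ΔIEC replicate 3 (Ccl9) and 3 without HDAC3FF replicate 3 (Ccl9, Slc12a8 and Hepacam2). Without HDAC3ΔIEC replicate 1 neither Ccl9 nor Slc12a8 passed, and the 2 genes called were Retnlb at -1.36 (limma adjusted p = 0.0472) and Ang4, a ribonuclease of the angiogenin family, at -1.91 (limma adjusted p = 0.00968). Retnlb and Hepacam2, with a limma adjusted p of 0.0568 and 0.0542 as reported, joined Ccl9 and Slc12a8 to give 4 calls with an intensity trend, array weights or either filter on dim genes. The same 4 were called when each array was scaled so that the mean of Muc2, Tff3, Clca1, Zg16 and Agr2 was equal, a setting chosen after the data were seen. That mean ran only from 12.69 to 12.92 over the arrays, and all of these genes but Muc2 lay near the top of the signal range. The scaling could therefore change little, and it cannot show whether the falls hold at an equal goblet cell content. Whether these genes differ from the members in their response was not tested.

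None of 14 transcription factors listed for goblet cells, not all of them particular to that lineage, was called by limma, while 3 had an unadjusted p under 0.05. Atoh1, which commits cells to the secretory lineage, had a difference of -0.09 ± 0.23 (SE), Spdef, which drives goblet cell maturation, -0.10 ± 0.15, and Klf4 0.15 ± 0.17. Creb3l4 had the smallest p, at -0.79 ± 0.14 (limma adjusted p = 0.0753), followed by Elf3 at 0.50 ± 0.19 (limma adjusted p = 0.376). In 3 of the 14 every HDAC3ΔIEC array read below every control and in 0 above, against 7.70% and 8.45% of all genes. The list's median was -0.06, with 9 below 0 and 5 above.

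Of 33 measured genes of mucin O-glycosylation, 2 rose, 1 fell and 30 did not pass, with a median of -0.06, where 0.369% of all genes rose and 0.333% fell. An unadjusted p under 0.05 was found for 14 of the 33. In 5 of them every HDAC3ΔIEC array read above every control and in 8 below, against 8.45% and 7.70% of all genes. The median near 0 thus covers differences in both directions. Galnt3, a transferase that starts O-linked chains, rose by 0.74 ± 0.09 (SE, limma adjusted p = 0.0280). St3gal4, which caps chains with sialic acid, rose by 1.27 ± 0.19 (limma adjusted p = 0.0409), and Chst4, a sulphotransferase, fell by 0.98 ± 0.12 (limma adjusted p = 0.0279). The list had 0 calls without HDAC3FF replicate 1 or without any HDAC3ΔIEC replicate, 1 without HDAC3FF replicate 2 and 5 without HDAC3FF replicate 3. Among 27 genes of protein folding and secretion, where Agr2 acts, the disulphide isomerase Pdia5 fell by 1.15 ± 0.11 (limma adjusted p = 0.0109), none rose and 26 did not pass, with a median of 0.08, where 0.333% of all genes fell. Of the 27, 6 had an unadjusted p under 0.05. Pdia5 did not pass without HDAC3FF replicate 1 or HDAC3ΔIEC replicates 2 or 3, with a limma adjusted p up to 0.0874.

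**Figure D5:**
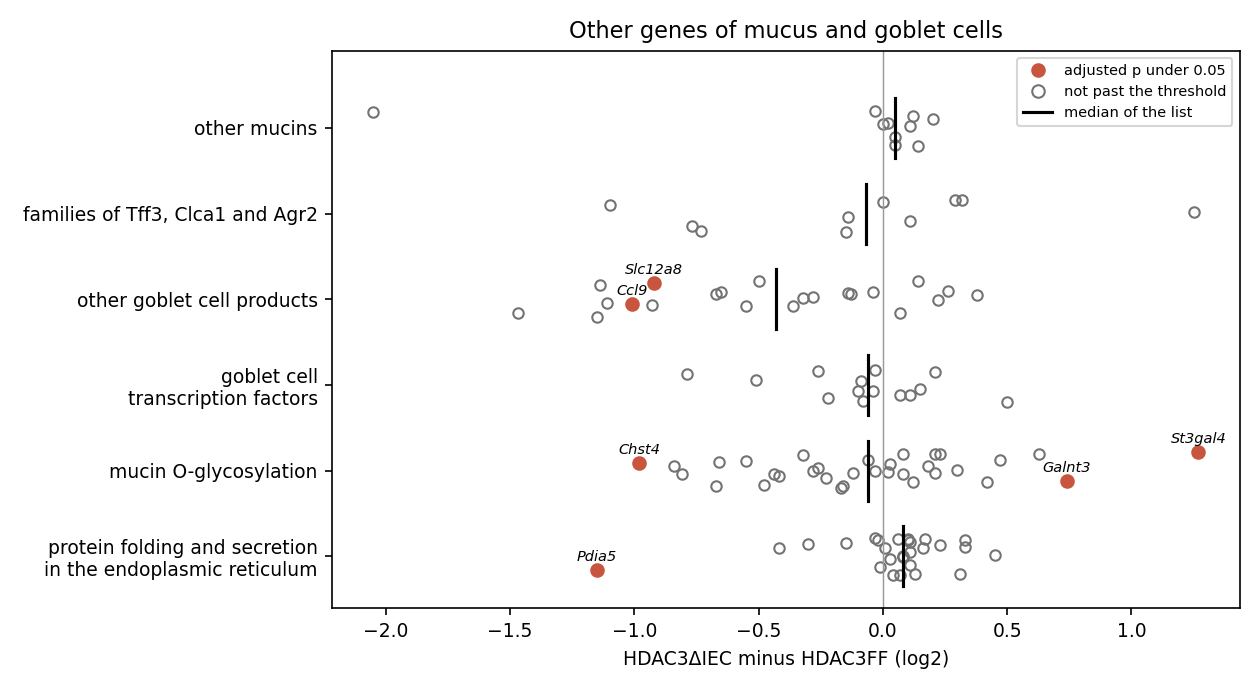
Log2 difference HDAC3ΔIEC minus HDAC3FF (x axis) of each measured gene in 6 lists of other mucus and goblet cell genes (y axis; vertical scatter only separates points), with called genes filled and named and each list's median as a black line. The list of other goblet cell products has its median at -0.43, the others between -0.07 and 0.08.

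Markers of the sorted cells were present: all 8 epithelial genes read above the median gene, with 0 called by limma and 4 at an unadjusted p under 0.05. Of the 8, 6 had differences above 0, with a median of 0.22. In 4 of the 8 every HDAC3ΔIEC array read above every control and in 0 below, against 8.45% and 7.70% of all genes. Krt19 had 0.30 ± 0.09 (SE, limma adjusted p = 0.255) and Krt8 0.26 ± 0.08 (limma adjusted p = 0.261). Epcam had -0.06 ± 0.10 and Vil1 0.18 ± 0.13. The 10 markers of absorptive colonocytes had no call by limma and 4 with an unadjusted p under 0.05. In 4 of the 10 every HDAC3ΔIEC array read above every control and in 3 below, against 8.45% and 7.70% of all genes. Slc26a3 had -0.44 ± 0.08 (limma adjusted p = 0.0819) and Aqp8 0.69 ± 0.22 (limma adjusted p = 0.266). The 2 brightest, Guca2a and Car1, had -0.17 and 0.17. Their summed linear signal, in which bright genes weigh most and opposite differences can cancel, ran from 37702 to 43479 in HDAC3FF and from 38067 to 43393 in HDAC3ΔIEC for all 10. Of 14 enteroendocrine markers, Insl5 and Pyy were called, both higher, where 0.369% of all genes were. All 14 had differences above 0, with a median of 0.83, and 9 had an unadjusted p under 0.05. In 9 of the 14 every HDAC3ΔIEC array read above every control, against 8.45% of all genes. With single arrays left out Insl5 lost its call without HDAC3FF replicate 1 or HDAC3ΔIEC replicate 2 (limma adjusted p = 0.066 and 0.0554), and Pyy lost it whichever array other than HDAC3FF replicate 3 was left out (limma adjusted p up to 0.17). The summed linear signal of all 14 ran from 2707 to 5221 in HDAC3FF and from 8545 to 10803 in HDAC3ΔIEC, higher on the same arrays as Muc4. Of 12 myeloid markers C1qa was called, lower, where 0.333% of all genes were. The call was lost without HDAC3FF replicate 1 or HDAC3ΔIEC replicate 2 or 3 (limma adjusted p up to 0.123). Of the 12, 3 had an unadjusted p under 0.05 and 9 lay under the median gene. The 9 tuft, 4 Paneth and 10 stem cell or cell division markers measured had 0 calls by limma, with 0, 1 and 1 at an unadjusted p under 0.05. No T, B, stromal or endothelial marker was called by limma, with 2, 0, 1 and 0 at an unadjusted p under 0.05. The part of other cells in the Muc4 result was not tested.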

How the data were processed

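Arrays of 6 mice were used, 3 per genotype. Each probe set has 1 deposited log2 signal per array, which the authors made with Affymetrix Power Tools, per the submitters' processing notes. No source used here gives its version, normalization or background correction, and the values carry no mark of detection or saturation. Of 24939 probe sets, 21105 name 1 gene, 1254 several and 2580 none listed; 21022 matched the RefSeq gene table (GRCm38.p6) by Entrez number and 83 kept their symbol.

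The values were fitted with limma 3.58.1 (lmFit and eBayes, R 4.3.3) over 19533 genes, two-sided, with no covariate and Benjamini-Hochberg adjustment over all genes. Calls required an adjusted p under 0.05. Intervals are limma's 95% intervals with 3.26 prior degrees of freedom. The fit was tested on simulated data, with 200 changed genes drawn from all genes in each of 10 runs. It called 28.6% of the simulated differences of 0.5, 76.8% of those of 1 and 96.4% of those of 2. Of 193330 unchanged values, 84 were called. A difference of 0.5 or less was thus usually missed there. At most 0.133% of genes had equal values on any pair of arrays.

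The members and gene lists were chosen with earlier results of these data known. The genes set to be named were the members, Hdac3, Epcam, Vil1 and, per list, up to 3 called genes with the largest change. Where none was called, the 2 with the smallest p were set, and for each marker list also the 2 brightest. Not all of these have a value in the text, as several lists are described by their counts alone. Neighbours of the members, Muc3, Muc5ac, Muc5b, Tff1, Tff2, Agr3, the Clca relatives other than Clca3a1 and Clca4b, Retnlb, Hepacam2, Ang4, Best2, Ern2, Spink4, Capn9, Bcas1, Atoh1, Spdef and Klf4 were named after their values were seen. Alternatives were a replicate block, other priors, array weights, other scalings, filters on dim genes, other uses of probe sets, thresholds, ordinary statistics and omission of each array. Figures were drawn with matplotlib 3.10.9.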

Additional observations from a re-analysis of the deposited data

How the results depend on the processing

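The count of 1 called member held under 13 of 20 alternatives, some of which could hardly have changed it. The threshold of 0.10 and the minimum difference of 1 reused the same fit, in which Muc4 stood at 1.61. Taking the mean of all probe sets left the members' values as they were, as each has 1 probe set. Scaling by goblet genes used members themselves. With arrays left out in turn the count was 1 only without HDAC3FF replicate 3 and otherwise 0. It was 0 with ordinary unmoderated statistics, where limma's moderation is left out. It was also 0 with the replicate number as a block; the labels do not say that the numbers mark pairs, and the deviations of same-numbered arrays correlated at -0.0242, -0.0651 and -0.198 over genes, so the block is given here only. With the replicate block 12 genes passed over all genes, against 137 without it, and the limma adjusted p of Muc4 was 0.0798. The limma adjusted p of Muc4 ran from 0.00123 to 0.296 over all alternatives, with differences from 1.42 to 1.86. Muc1, Muc13, Muc2, Clca1, Zg16 and Agr2 kept their sign and did not pass under any of the 20, nor did Muc20 under the 19 that kept it. The sign of Tff3 turned with median centring (0.01) and without HDAC3FF replicate 3 (0.04), HDAC3ΔIEC replicate 1 (0.01) or HDAC3ΔIEC replicate 2 (0.01), ranging from -0.04 to 0.04 with arrays left out in turn, and those of the markers Epcam (0.02 without HDAC3FF replicate 3, range -0.11 to 0.02), Sh2d6 (-0.22 without HDAC3FF replicate 2 or HDAC3ΔIEC replicate 1, range -0.22 to 0.37) and Ighm (0.04, mean of all probe sets) turned too. The cause of these changes was not tested. The number of members near the top of the range was 4 as reported, 4 under quantile normalization and 5 with the mean of all probe sets. Over all genes 13 to 430 passed with 1 array left out, 357 with array weights, 178 with an intensity trend, 90 with adjustment over all probe sets, 321 at an adjusted p under 0.10 and 0 with ordinary statistics, where 1858 had an unadjusted p under 0.05. Whether the low signal of Muc20, or the place of Tff3, Clca1, Zg16 and Agr2 near the top of the range, affected their differences was not tested.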

Other observations

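Muc13 lies on the same chromosome as Muc4. Of the 5 measured protein-coding genes on either side of it, 1 was called, where 0.701% of all genes were, and 2 had an unadjusted p under 0.05. The called gene was Slc12a8, of the list of other goblet cell products, which fell by 0.92, while Muc13 itself read 0.38 higher and did not pass. Slc12a8 lost its call whichever array other than HDAC3FF replicate 3 was left out (limma adjusted p up to 0.165). The other was Itgb5, at -0.40 (limma adjusted p = 0.263). Around Muc2 the 10 neighbours had differences from -0.06 to 0.44, and around Tff3 from -0.15 to 0.40, with 0 called by limma and 1 at an unadjusted p under 0.05 in each set. The neighbours of Clca1, which include its own relatives, ranged from -1.10 to 1.25, with 0 called by limma and 7 at an unadjusted p under 0.05; 5 of the 7 were Clca genes, and the others were Odf2l (0.89, adjusted p = 0.0654) and Znhit6 (-0.62, adjusted p = 0.313). These genes were looked up after the values of the members were known.

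Capn9, a goblet cell calpain, and Bcas1 read 7.59, 8.02 and 9.01, and 8.48, 8.72 and 9.54, on HDAC3FF arrays. HDAC3FF replicate 3 was the highest control for both, as it was for Muc4, Muc13, Muc2, Tff3, Clca1, Zg16 and Agr2. Muc16 and Clca3a1 had their lowest control values on the same array, 5.15 and 5.22.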
